A study of Mus musculus with 12 samples.

Results

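mmu-miR-103-3p and mmu-miR-107-3p, a pair of nearly identical microRNAs (miRNAs), were followed in the hearts of diabetic and non-diabetic mice with and without a monoamine oxidase (MAO) inhibitor. They were taken by name, with earlier results of these data known, from the 1881 mouse miRNAs on the array, and make up 2 of those 1881. Both were detected above background on all 12 arrays, and so passed the filter that left 128 miRNAs for testing. The 12 arrays each held labelled RNA from the heart muscle of 1 male C57BL6/J mouse, 3 mice in each of 4 groups. C were control mice. D were mice made diabetic with streptozotocin, a compound toxic to the pancreatic beta cell, at 50 mg/kg daily on 5 days. C + P were control mice given the MAO inhibitor pargyline at 50 mg/kg/day, and D + P were streptozotocin mice given the same pargyline treatment, which lasted 12 weeks. All mice were 6 to 7 weeks old at the start and are labelled as 5 months old at sampling. An animal counted as diabetic at a blood glucose of at least 17 mM. The model is chemical loss of beta cells in 1 inbred strain and in males only, and pargyline was given to the whole animal, so no value belongs to a single cell type.

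A miRNA is a short RNA that guides the Argonaute proteins to messenger RNAs carrying a match to its seed, the bases near its 5′ end, and lowers their translation or stability. miR-103 and miR-107 come from introns of the pantothenate kinase genes, which make the first enzyme of coenzyme A synthesis, and as a pair they are known as negative regulators of insulin sensitivity in liver and fat, with caveolin-1, a scaffold protein that stabilises the insulin receptor, among their targets. The heart is an insulin-responsive organ, and the design asks how the pair stands in hearts lacking insulin, and in such hearts when MAO, a mitochondrial source of hydrogen peroxide, is inhibited.

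The mature sequences, from RefSeq (GRCm38.p6), are shown because the pair differs so little that the array's ability to separate them bears on every value that follows. Capitals mark the seed, bases 2 to 8.
mmu-miR-103-3p: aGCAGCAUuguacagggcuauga
mmu-miR-107-3p: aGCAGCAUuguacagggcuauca
Both are 23 bases long, 22 of which are identical (95.7%). The single difference, G22C counted from the 5′ end with the miR-103-3p base first, lies next to the 3′ end and outside the seed. The seed GCAGCAU was held by these 2 names alone among 1679 mature mouse entries. miR-103-3p is made from a pair of loci. Mir103-1 lies on the + strand within the span of Pank3 (mature strand chr11:35782447-35782469), and Mir103-2 on the + strand within the span of Pank2 (chr2:131288103-131288125). Mir107, the only locus of miR-107-3p, lies on the - strand within the span of Pank1 (chr19:34820700-34820722). The product of the 2 miR-103 loci is the same molecule and cannot be split by locus on an array, and how far a probe for one member also reads the other was not tested.

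The opposite strands that the array measured gave no signal. miR-107-5p (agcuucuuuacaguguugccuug) and miR-103-1-5p (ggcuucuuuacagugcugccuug) were detected on 0 of 12 arrays, so that only the -3p arm of these hairpins gave a measured signal. miR-103-2-5p had no entry under that name on the array, so the opposite strand of Mir103-2 was not measured.

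Scanner signals, in intensity units before any scaling between arrays, were as follows. miR-103-3p gave 20.9, 19.2 and 21.04 in C, 50.5, 43.8 and 33.1 in D, 36.5, 41.9 and 64.6 in C + P, and 17.7, 35.2 and 41.7 in D + P. miR-107-3p gave 21.3, 18.7 and 21.2 in C, 67.1, 61.1 and 38.5 in D, 43.1, 52.6 and 88.3 in C + P, and 17.96, 39.2 and 51.7 in D + P. For both miRNAs the 3 C arrays were dim and close together, every D and C + P array was brighter than every C array, and D + P replicate 1 sat with the C arrays while D + P replicates 2 and 3 were brighter. The scanner's own error was between 7.51% and 11.5% of the signal over both members.

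**Figure D1:**
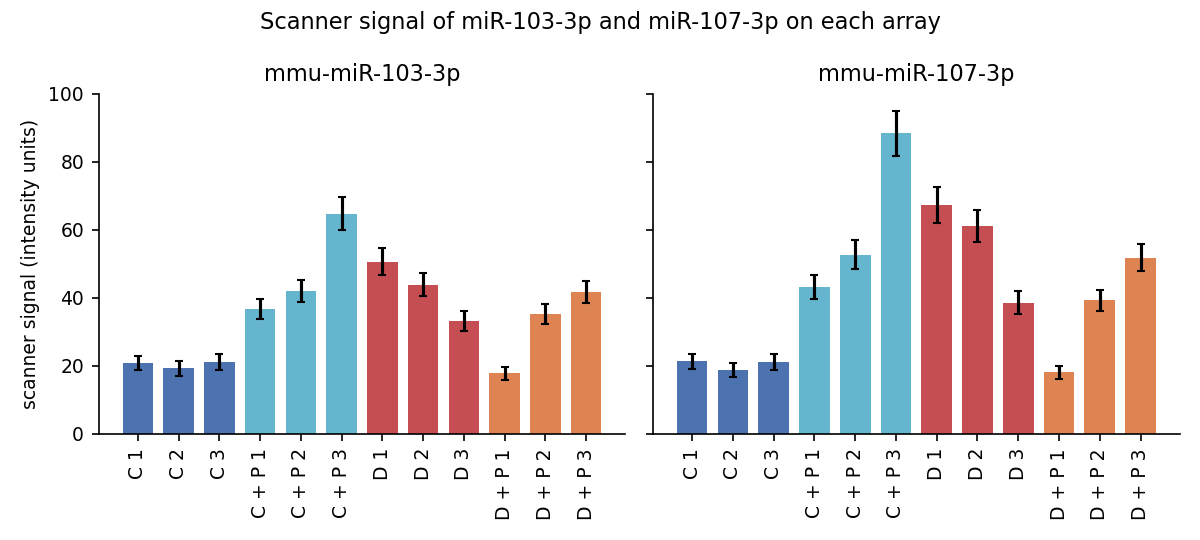
Scanner signal (intensity units) of miR-103-3p and miR-107-3p on each of the 12 arrays, before scaling between arrays; bars are single arrays coloured by group, and whiskers are the scanner's error. The C arrays lie between 18.7 and 21.3 for both miRNAs, and D + P replicate 1 lies at 17.7 and 17.96.

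Much of this spread was shared by the other miRNAs. The signal summed over detected miRNAs was 27107 to 35028 on the C arrays, 48104 to 61254 in D, 57895 to 89040 in C + P and 39661 to 58631 in D + P, and between 144 miRNAs (a C array) and 253 (a C + P array) were detected. Without normalization the median of the 128 miRNAs was 0.77 higher in D than in C on the log2 scale, against 1.04 for miR-103-3p and 1.41 for miR-107-3p, and it was 1.15 higher in C + P than in C, against 1.18 and 1.53. Mice without pargyline were hybridised on 1 slide and mice with it on the other, so that slide and pargyline cannot be told apart, and on both slides the non-diabetic arrays filled row 1 and the diabetic arrays row 2, so that row and diabetes cannot be told apart. The interaction, the change with pargyline in diabetic hearts minus that in control hearts, is not touched by a constant shift of a slide or of a row. It is touched by brightness that differs beyond such shifts. Without normalization its median over the 128 miRNAs was -1.17, against -1.68 for miR-103-3p and -2.23 for miR-107-3p. Levels from here on are log2 signals after cyclic loess normalization, which sets the arrays to a common scale at each intensity.

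After normalization, the miR-103-3p level was highest in D. It was 4.84, 4.97 and 4.92 in C, 5.07, 5.09 and 5.04 in C + P, 5.39, 5.36 and 5.07 in D, and 4.50, 4.86 and 4.98 in D + P. In the order of group means, D + P (4.78 ± 0.25, SD, n = 3) and C (4.91 ± 0.07) overlapped, C lay wholly below C + P (5.07 ± 0.03), and C + P overlapped with D (5.27 ± 0.18).

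The miR-107-3p level had its highest mean in D as well. It was 4.86, 4.92 and 4.91 in C, 5.31, 5.41 and 5.46 in C + P, 5.81, 5.84 and 5.30 in D, and 4.54, 5.01 and 5.28 in D + P. C (4.90 ± 0.03) overlapped with D + P (4.95 ± 0.37), D + P lay just below C + P (5.39 ± 0.08), and C + P overlapped with D (5.65 ± 0.30). In both miRNAs D replicate 3 was the lowest of its group, and D + P replicate 1 was the lowest of all 12 arrays.

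**Figure D2:**
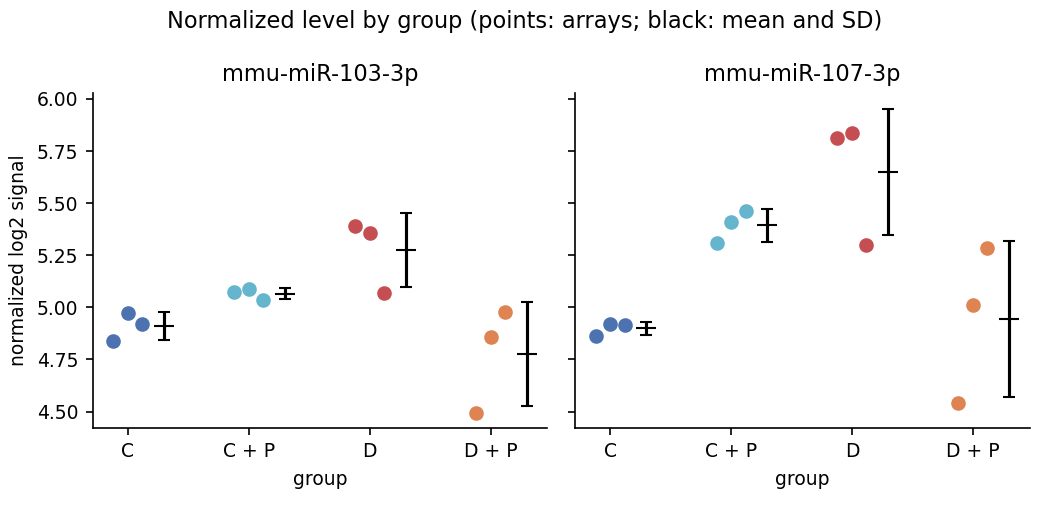
Normalized log2 signal of each member by group; points are the 3 arrays of a group, and black marks give the mean and SD. Group means run from 4.78 (D + P) to 5.27 (D) for miR-103-3p and from 4.90 (C) to 5.65 (D) for miR-107-3p.

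In streptozotocin diabetes without the inhibitor miR-107-3p was higher than in control hearts, and the higher mean of miR-103-3p missed the threshold. The miR-107-3p change from C to D was 0.75 on the log2 scale (SE 0.19, 3 arrays against 3), a 1.68-fold rise with a 95% interval from 1.26 to 2.25 and an adjusted p = 0.00967 (limma, Benjamini-Hochberg over the 128 miRNAs). The miR-103-3p difference was 0.36 (SE 0.15, 1.29-fold, interval 1.03 to 1.60), with an adjusted p = 0.0542 in the same limma fit. For both miRNAs all 3 D arrays lay above all 3 C arrays. How many of the 128 miRNAs were parted without overlap was not counted, here or in the other comparisons, so such a parting does not set the pair apart. Among the 128 miRNAs, 50% passed in this comparison, 24.2% as higher in D, and by size of change miR-107-3p ranked 38 and miR-103-3p 80. The change of miR-107-3p fell to 0.30 (limma adjusted p = 0.567) with the mean signal of the array's control features as a covariate, and to 0.23 (adjusted p = 0.928) with the array's summed signal as a covariate. The miR-103-3p difference passed when D replicate 3, D + P replicate 1 or D + P replicate 3 was left out, with values between 0.32 and 0.48 over all single arrays left out. It was 0.12 with either brightness covariate and 0.20 with scaling to the 75th percentile, and did not pass there.

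In hearts without diabetes, pargyline was accompanied by a higher mean of both miRNAs, neither of which passed the test. The C + P minus C difference was 0.49 for miR-107-3p (SE 0.19, 1.41-fold, limma adjusted p = 0.0589) and 0.15 for miR-103-3p (SE 0.15, 1.11-fold, adjusted p = 0.386). For both, every C + P array lay above every C array, and these groups lay on different slides. Of all miRNAs 36.7% passed here, 18% as higher. With the summed signal as a covariate the differences were -0.25 and -0.19, and the miR-107-3p difference passed without D replicate 3, D + P replicate 1 or D + P replicate 3, at 0.46 to 0.54 over all arrays left out in turn.

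In diabetic hearts, both miRNAs were lower with pargyline than without it, in a comparison of arrays on different slides. miR-107-3p fell by 0.70 on the log2 scale from D to D + P (SE 0.19, a ratio of 0.614 with an interval of 0.460 to 0.820, limma adjusted p = 0.0171), and miR-103-3p fell by 0.50 (SE 0.15, a ratio of 0.708, interval 0.569 to 0.882, adjusted p = 0.0216). All 3 D + P arrays lay below all 3 D arrays for each, although for miR-107-3p D + P replicate 3 (5.28) and D replicate 3 (5.30) were nearly level. Of the 128 miRNAs 53.9% passed, 27.3% as lower, and miR-107-3p ranked 36 and miR-103-3p 61 by size. The calls were lost for both in a fit of the 2 groups alone (limma adjusted p = 0.098 for miR-107-3p and 0.112 for miR-103-3p), with the control features as a covariate (0.107 and 0.115), and without D replicate 1 or D replicate 2. Both were also lost without normalization, and both were kept with the summed signal as a covariate (limma adjusted p = 0.0146 and 0.0263). For miR-103-3p the call was also lost without D + P replicate 1, at a change of -0.33 (adjusted p = 0.0589), and scaling to the 75th percentile in place of loess gave -0.23 and for miR-107-3p -0.44, neither of which passed.

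The D + P hearts did not differ detectably from the C hearts in either miRNA. The difference was -0.13 for miR-103-3p (SE 0.15, 95% interval -0.45 to 0.18, limma adjusted p = 0.673) and 0.05 for miR-107-3p (SE 0.19, interval -0.37 to 0.46, adjusted p = 0.898), in a comparison in which 1.56% of miRNAs passed. These arrays lay on different slides. Against C + P, on the same slide, D + P was lower by 0.29 for miR-103-3p (limma adjusted p = 0.14) and by 0.45 for miR-107-3p (adjusted p = 0.101), where 13.3% of miRNAs passed. The 3 D + P arrays all lay below the 3 C + P arrays, and both differences passed without D + P replicate 3, at -0.39 and -0.62. Without D + P replicate 1 they were -0.13 and -0.22, with the control features as a covariate -0.13 and -0.15, and with the summed signal -0.14 and -0.13, none of which passed.

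The change with pargyline differed between diabetic and control hearts for both miRNAs. The interaction was -1.20 for miR-107-3p (SE 0.27, limma adjusted p = 0.00353) and -0.65 for miR-103-3p (SE 0.21, adjusted p = 0.0151). It passed for 70.3% of the 128 miRNAs, 35.2% as negative, and by size the members ranked 40 and 82, so that the pair stood within the bulk of the miRNAs. This term held its call whichever single array was left out, from -1.41 to -0.95 for miR-107-3p and from -0.79 to -0.47 for miR-103-3p, but not with the brightness covariates, where it was -0.45 and -0.25 with the control features and -0.36 and -0.27 with the summed signal, nor for miR-103-3p with scaling to the 75th percentile (-0.32). Diabetes averaged over both slides moved neither miRNA past the threshold, with 0.15 for miR-107-3p (limma adjusted p = 0.586) and 0.04 for miR-103-3p (adjusted p = 0.843) and 1.56% of miRNAs passing.

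**Figure D3:**
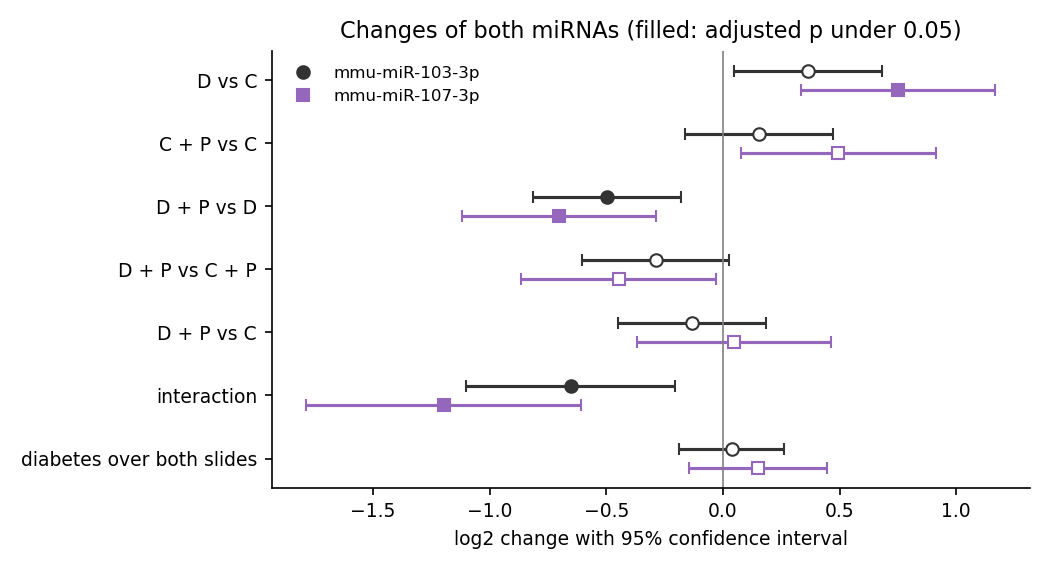
Log2 change (x axis) of miR-103-3p (circles) and miR-107-3p (squares) in each of the 7 comparisons, with 95% confidence intervals; filled symbols passed at an adjusted p under 0.05. The largest changes are the interaction, -0.65 and -1.20, and the D + P minus C changes lie at -0.13 and 0.05.

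In most comparisons the estimated change was larger in size for miR-107-3p than for miR-103-3p. No exact test of this difference passed the threshold of 0.05. On each array the log2 signal of miR-107-3p minus that of miR-103-3p was taken, so that whatever scales both alike cancels. It is used only to compare changes, since signals of different probes do not rank abundance. This difference was 0.03, -0.05 and -0.01 in C, 0.42, 0.48 and 0.23 in D, 0.23, 0.32 and 0.43 in C + P, and 0.05, 0.16 and 0.31 in D + P. The C arrays lay below all of the other 9, which did not hold without normalization, where D + P replicate 1 (0.0202) lay below C replicate 1 (0.0281).

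From C to D, miR-107-3p changed by 0.39 more than miR-103-3p (SE 0.09, exact two-sided permutation p = 0.1, the smallest that 3 arrays against 3 allow). From C to C + P the excess was 0.34 (SE 0.09, exact permutation p = 0.1). From D to D + P the miR-107-3p change was more negative by 0.21 (SE 0.09, exact permutation p = 0.2), with D replicate 3 inside the D + P range, and the difference was -0.07 with the authors' normalized values (exact permutation p = 0.7). From C + P to D + P it was more negative by 0.16 (SE 0.09, exact permutation p = 0.2), and D + P exceeded C by 0.18 (SE 0.09, exact permutation p = 0.1). In the interaction the members differed by -0.54 (SE 0.12, no exact test). Averaged over both slides, the difference between their diabetes changes was 0.11 (SE 0.06, exact permutation p = 0.31 with arrays permuted within slides). In each of the 6 comparisons in which both members moved the same way, the change of miR-107-3p was the larger in size. These comparisons reuse the same group means, so they are not independent of each other. An exact test of 3 arrays against 3 cannot give a p under 0.1. Without normalization the values were close to these (0.37 for D and 0.34 for C + P, both against C), but the exact permutation p for D + P against C was then 0.2 (3 arrays against 3).

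The ratio of the pair also moved with the brightness of the array. The scanner signal of miR-107-3p over that of miR-103-3p was 1.02, 0.973 and 1.01 in C and 1.01 on D + P replicate 1, the 4 arrays with the lowest summed signal. On the 8 brighter arrays it was 1.33, 1.40 and 1.16 in D, 1.18, 1.26 and 1.37 in C + P, and 1.11 and 1.24 on D + P replicates 2 and 3. With the summed signal as a covariate the excess of miR-107-3p was 0.11 (SE 0.09) from C to D and -0.06 (SE 0.11) from C to C + P, and the interaction difference was -0.10 (SE 0.13). From D to D + P the difference moved less, to -0.16 (SE 0.05) from -0.21 without the covariate. The part of array brightness in the paralog difference was not tested beyond these fits.

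**Figure D4:**
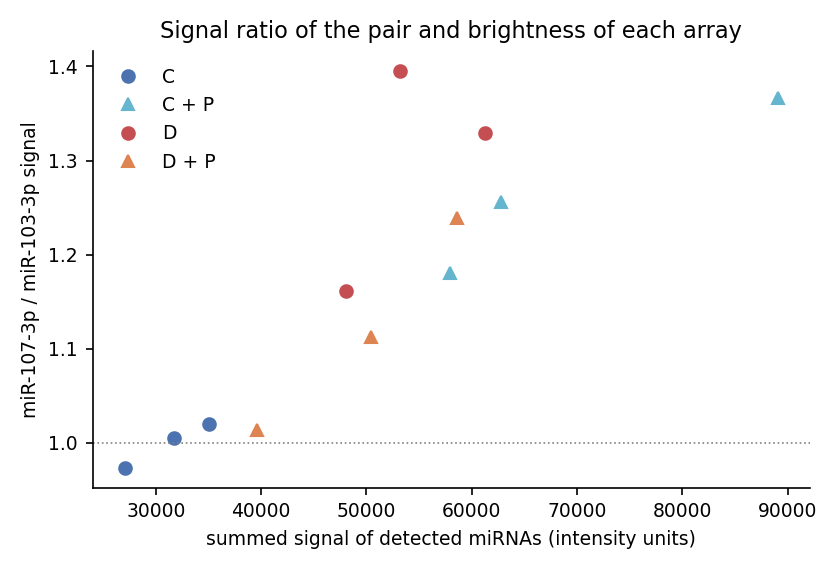
Scanner signal of miR-107-3p divided by that of miR-103-3p (y axis) against the summed signal of detected miRNAs on the array (x axis, intensity units); each point is 1 array, with circles for arrays without pargyline and triangles for arrays with it. The 4 dimmest arrays have ratios of 0.973 to 1.02, and the 8 brighter ones of 1.11 to 1.40.

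The within-group spread of the members differed as well. The residual SD was 0.16 for miR-103-3p, rank 26 from the lowest of 128, and 0.24 for miR-107-3p, rank 69, against a median of 0.24. Over the 12 arrays, as a description of normalized levels, the miRNAs most like miR-103-3p were let-7a-5p (Pearson r = 0.950), miR-107-3p itself (0.946), miR-151-5p (0.944), let-7d-5p (0.930) and let-7g-5p (0.923). Those most like miR-107-3p were let-7d-5p (0.983), let-7g-5p (0.974), let-7f-5p (0.972), miR-322-5p (0.969) and miR-199a-3p (0.962), with miR-103-3p in rank 9. These levels share arrays, groups and brightness.

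miR-103 and miR-107 belong by sequence to a wider group that carries the hexamer AGCAGC near the 5′ end, with the miR-15/16 family, known for restraining the cell cycle and, in the heart, cardiomyocyte proliferation and survival. The relatives are shown because the hexamer, in capitals, starts at base 1 in the pair and at base 2 in the others, so the seeds differ.
mmu-miR-107-3p: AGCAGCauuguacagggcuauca
mmu-miR-15b-5p: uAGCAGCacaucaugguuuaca
mmu-miR-16-5p: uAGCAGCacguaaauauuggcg
mmu-miR-322-5p: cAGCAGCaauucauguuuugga
mmu-miR-497a-5p: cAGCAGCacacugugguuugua
Of 1679 mature entries 13 (0.77%) held AGCAGC within the first 7 bases, and 8 of these were detected on all arrays, namely the pair and miR-15a-5p, miR-15b-5p, miR-16-5p, miR-195a-5p, miR-322-5p and miR-497a-5p. miR-503-5p, the seventh relative listed, was not detected on any array.

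Of the 6 relatives tested, 4 passed as higher in D than in C and 0 as lower, where 24.2% of all 128 passed as higher and 25.8% as lower, with a median change of 0.60 against 0.02 over all 128. miR-15b-5p rose by 1.82 (SE 0.40, limma adjusted p = 0.00553), miR-322-5p, the mouse counterpart of human miR-424, by 1.05 (SE 0.28, adjusted p = 0.0106), miR-195a-5p by 0.68 (adjusted p = 0.0219) and miR-16-5p by 0.52 (adjusted p = 0.0142). miR-15a-5p (0.45, adjusted p = 0.0789) and miR-497a-5p (-0.01) did not pass. The 0.75 of miR-107-3p lay between miR-195a-5p and miR-322-5p, and the 0.36 of miR-103-3p below miR-15a-5p.

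From C to C + P, 3 relatives passed as higher (18% of all miRNAs) and 0 as lower, with a median of 0.48 against -0.04. From D to D + P, 5 of the 6 passed as lower (27.3% of all miRNAs) and 0 as higher, with a median of -0.69 against -0.09. miR-15b-5p fell by 1.59 (SE 0.40, limma adjusted p = 0.0133) and miR-322-5p by 0.90 (SE 0.28, adjusted p = 0.0238), and miR-497a-5p was the member that did not pass (-0.11). In the interaction 5 passed as negative (35.2% of all miRNAs), with a median of -1.10. As with the pair, the brightness covariates moved these counts. With the control features as a covariate 0 of 6 passed in limma in any of these comparisons (at an unadjusted p under 0.05, 3 from D to D + P and 0 elsewhere), and of all 128 miRNAs 1 passed from C to D, 2 from C to C + P and 0 from D to D + P and in the interaction. With the summed signal as a covariate 5 of the 6 passed as lower from D to D + P, beside 30 of the 128, and 0 from C to D, from C to C + P and in the interaction, beside 0 of the 128. Without D + P replicate 1 the counts were 5 higher from C to D, beside 42 of the 128, and 2 lower from D to D + P, beside 15 of the 128.

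**Figure D5:**
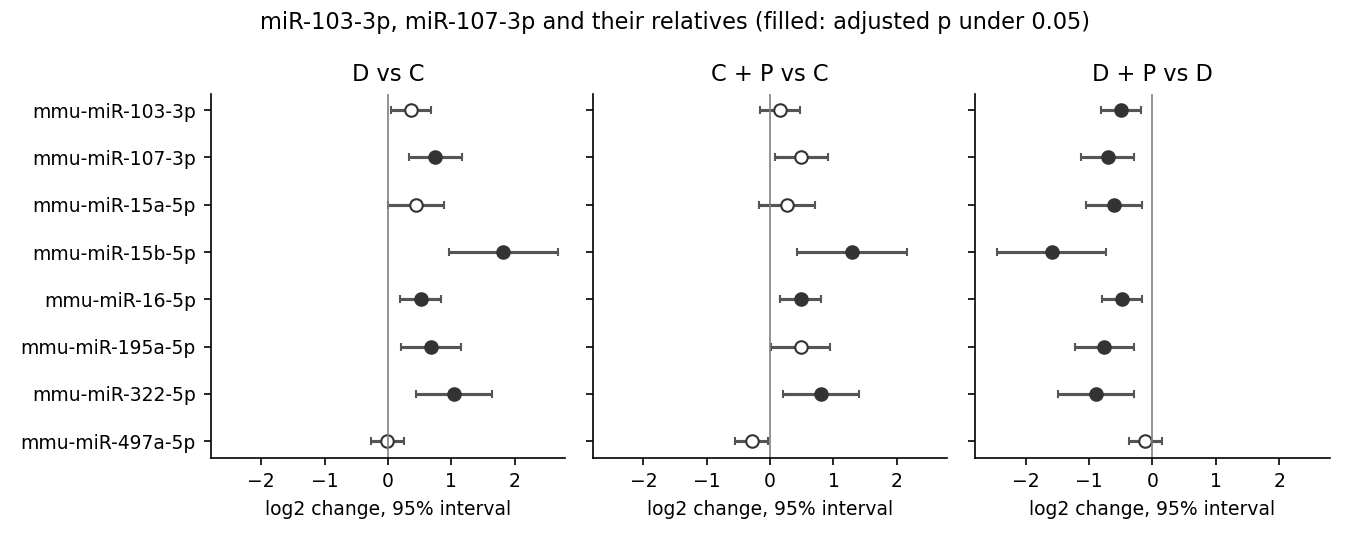
Log2 change with 95% confidence interval (x axis) of miR-103-3p, miR-107-3p and the 6 relatives tested (rows) from C to D, C to C + P and D to D + P (panels); filled points passed at an adjusted p under 0.05. miR-15b-5p shows the largest changes, 1.82 and -1.59 in the panels for D and for D + P, and miR-497a-5p lies near 0 in both.

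Other miRNAs known to act on insulin signalling or glucose metabolism were set beside the pair. Of 20 listed, 15 were tested. miR-33-5p, miR-122-5p, miR-375-3p and miR-802-5p were not detected on any array, and let-7e-5p was detected on 11 of 12. From C to D 6 passed as higher (24.2% of all miRNAs) and 0 as lower (median 0.20 against 0.02), 4 of them let-7 miRNAs, which are known to lower the insulin receptor and its substrate IRS2. let-7f-5p rose by 0.99 (SE 0.29, limma adjusted p = 0.0165), let-7d-5p by 0.93 (SE 0.24, adjusted p = 0.0106), let-7g-5p by 0.75 (SE 0.21, adjusted p = 0.0142) and let-7a-5p by 0.63 (SE 0.23, adjusted p = 0.0418), in the range of the 0.75 of miR-107-3p. The other 2 were miR-143-3p, a smooth muscle miRNA known to impair insulin-driven AKT activation in liver (0.47, adjusted p = 0.0469), and miR-223-3p, a myeloid miRNA also tied to the glucose transporter GLUT4 (1.03, adjusted p = 0.0276). Among the 9 that did not pass were let-7c-5p (0.20), let-7b-5p (-0.045) and let-7i-5p (-0.12), so let-7 did not move as a whole. miR-29a-3p (0.08), miR-29b-3p (0.10) and miR-29c-3p (-0.19) did not pass either.

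From C to C + P 4 of the 15 passed as higher (18% of all miRNAs) and 1, miR-26a-5p, as lower (-0.34, limma adjusted p = 0.0304). From D to D + P 0 passed as higher and 7 as lower (27.3% of all miRNAs), 6 of them let-7 miRNAs and the other miR-223-3p (-1.30, adjusted p = 0.0163), with a median of -0.20 against -0.09. In the interaction 7 passed as negative (35.2% of all miRNAs) and 1, miR-26a-5p, as positive (0.52, adjusted p = 0.00958). With the control features as a covariate 0 of 15 passed in limma in these comparisons (at an unadjusted p under 0.05, 6 from D to D + P and 1 in each of the others), the counts over all 128 being those given for the relatives. With the summed signal as a covariate 7 of 15 again passed as lower from D to D + P, beside 30 of the 128, and 0 in the others, and without D + P replicate 1 the count from D to D + P was 3, beside 15 of the 128. The comparisons share arrays, so the changes of a miRNA from C to D and from D to D + P both rest on the D arrays.

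Markers of the cells in a heart varied with the groups. Of 5 muscle miRNAs 4 were detected on all arrays and miR-208b-3p on none, and their summed signal was 6.75% to 7.04% of the array's total in C, 9.73% to 12.8% in D, 10.71% to 13.03% in C + P and 4.26% to 10.69% in D + P. miR-126a-3p, the endothelial marker, ran from 1.27% to 1.31% in C, 1.67% to 1.97% in D, 1.69% to 2.16% in C + P and 0.812% to 1.74% in D + P. The 3 leukocyte miRNAs (2 detected on all arrays) summed to 0.045% to 0.074% in C, 0.08% to 0.087% in D, 0.114% to 0.135% in C + P and 0.026% to 0.082% in D + P, and the 3 red cell miRNAs, all detected throughout, spanned 0.922% to 1.88% over the groups. The smooth muscle pair, also detected throughout, spanned 0.136% to 0.222%. The markers of liver, neurons and islets were not detected on any array. Before normalization, the summed shares of the muscle, endothelial, leukocyte and smooth muscle markers were higher in D and C + P than in C. The members were higher there in scanner signal, which is not a share of the array's total and follows its brightness. Normalized, the endothelial miR-126a-3p differed from C by 0.20 in D and 0.32 in C + P. The leukocyte miR-142a-3p differed by 0.58 and 0.89, and the smooth muscle miR-145a-5p by 0.38 and 0.27. None of these passed in limma, whereas miR-223-3p (1.03 and 1.40) and miR-143-3p (0.47 and 0.64) passed in both comparisons. The red cell miRNAs had lower means than C in both D and C + P. miR-144-3p differed by -0.57 (limma adjusted p = 0.0243) and -0.49 (0.0545), and miR-486a-5p by -0.21 (0.383) and -0.85 (0.0175). miR-451a differed by -0.13 and -0.17 and passed in neither. The muscle miRNAs did not move together within their sum. After normalization miR-1a-3p was higher in D by 1.32 and in C + P by 1.48 (limma adjusted p = 0.00347 and 0.00548), miR-133a-3p differed by 0.01 and -0.10 and miR-499-5p by 0.09 and 0.41, none of which passed, and miR-208a-3p was lower in D by 0.78 (adjusted p = 0.0073) and differed by -0.47 in C + P (adjusted p = 0.0589). The part of the markers in the changes of the members was not tested. In whole heart, a shift in the cells present and a shift within cells cannot be told apart.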

How the data were processed

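Hearts of 12 mice were profiled on a 1-colour (Cy3) Agilent mouse miRNA array based on miRBase 21. The authors extracted probe features with Feature Extraction software; the deposited intensity per miRNA is its total gene signal with an error and a detection flag, not scaled between arrays. The authors' deposited normalized table, also intensity, made by cyclic loess, served as an alternative. The labels name macrophages in the extraction text, but the tissue is heart muscle.

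The deposited intensity of the 128 miRNAs detected on all arrays was put on the log2 scale and normalized by cyclic loess (span 0.7, 3 iterations), as in the study's methods, and fitted with limma 3.58.1 (R 4.3.3) over all 12 arrays, with Benjamini-Hochberg adjustment and a threshold of 0.05. The fits were tested on simulated data with independent noise. These held no differences of array brightness, slide or row, so the test does not cover such effects. The pair difference was compared by exact permutation of arrays. Alternatives were quantile, 75th percentile and no normalization, other filters, 16 added before log2, a replicate block, an intensity trend, the compared groups alone, Bonferroni adjustment, the methods' t-test, covariates of array brightness and each array left out. The summed signal covariate, both covariates for the pair difference, and the counts of calls under covariates or without D + P replicate 1 were added after seeing the data. No depth exists for arrays; their number limits the precision.

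Members and lists were chosen with earlier results of these data known. The text names the pair, their passenger strands, the 5 miRNAs most like each, and members of the lists of relatives, insulin miRNAs and cell markers; examples from the lists were picked among those that passed and those that did not. Replicates are different mice. No 2 arrays held identical values (0 pairs).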

Additional observations from a re-analysis of the deposited data

Results flagged for a closer look

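The change with pargyline, which is also a change of slide, differed between diabetic and control hearts for both miRNAs, by a test of the difference itself. The interaction was -0.65 for miR-103-3p and -1.20 for miR-107-3p on the log2 scale, with limma adjusted p = 0.0151 and 0.00353. It passed for 90 of the 128 miRNAs tested. With the control features as a covariate the values were -0.25 and -0.45, and 0 of 128 miRNAs passed in limma (12 at an unadjusted p under 0.05). With the summed signal as a covariate they were -0.27 and -0.36, and again 0 of 128 passed in limma (4 at an unadjusted p under 0.05).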

How the results depend on the processing

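Over 525 alternative values, 444 kept the direction and the side of the threshold (or moved by less than the error), 37 lost a call, 17 gained one, 17 changed sign and 10 pair differences moved by more than their error. For pair differences of 1 group against another, outside the covariate fits, no exact p could pass. Such values counted as kept unless the sign changed, so the 444 includes values whose label was otherwise fixed. Values are log2 changes, miR-103-3p first unless 1 is named; apart from what an alternative's own construction shows, the cause was not tested. Without normalization, D against C was 1.04 for miR-103-3p and C + P against C 1.18 and 1.53 (gained), D + P against D -0.50 and -0.71 (lost), and D + P against C 0.54 for miR-103-3p (sign changed). Quantile normalization gave -0.45 for D + P against D (adjusted p = 0.0514 in limma) and -0.014 for diabetes over both slides, both for miR-103-3p. Scaling to the 75th percentile gave -0.23 and -0.44 for D + P against D and -0.32 for the miR-103-3p interaction, all lost; the percentile of all miRNAs was not run because it fell on an undetected value. The authors' normalized values gave -0.93 for miR-107-3p from D to D + P (limma adjusted p = 0.0501), -0.17 for D + P against C and -0.38 for the interaction of the pair difference; adding 16 gave -0.37 there and 0.25 for miR-103-3p from C to D (gained). The filter on 1 group gained miR-103-3p from C to D (0.43). With no filter, calls were lost for miR-107-3p from C to D (0.77), for D + P against D (-0.56 and -0.75) and for the interaction (-0.67 and -1.21). With the compared groups alone, miR-103-3p from C to D (0.36) and miR-107-3p from C to C + P (0.49) were gained and D + P against D (-0.50 and -0.70) lost. Bonferroni adjustment removed every call, with the same changes (0.75 for miR-107-3p from C to D, -0.50 and -0.70, -0.65 and -1.20); the methods' t-test gained C + P against C (0.15 and 0.49) and lost D + P against D with Benjamini-Hochberg, and made no call with Bonferroni.

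With the control features as a covariate, the values were 0.30 for miR-107-3p from C to D, -0.11 and -0.0015 from C to C + P, -0.36 and -0.45 from D to D + P, -0.15 for miR-107-3p in D + P against C, -0.25 and -0.45 for the interaction and -0.0046 for miR-103-3p over both slides. With the summed signal they were 0.23, -0.19 and -0.25, -0.38 (miR-107-3p, D + P against C), -0.27 and -0.36, and -0.0091, while D + P against D kept both calls. The pair difference with the control features was 0.18 for D and 0.11 for C + P against C. For D + P it was -0.092 against D, -0.023 against C + P and 0.089 against C, and for the interaction -0.20. With the summed signal the values in the same order were 0.11, -0.060, -0.16, 0.012, -0.047 and -0.10.

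Leaving out 1 array at a time gave ranges of 0.32 to 0.48 for miR-103-3p from C to D, 0.46 to 0.54 for miR-107-3p from C to C + P, -0.62 to -0.33 and -0.90 to -0.47 for D + P against D, -0.39 to -0.13 and -0.62 to -0.22 for D + P against C + P, -0.23 to 0.012 (positive without D + P replicate 1) and -0.12 to 0.26 (negative without D + P replicate 3) for D + P against C, and -0.014 (without D + P replicate 3) to 0.11 for miR-103-3p over both slides. Of 18 correlations between the deviations of same-numbered arrays, 4 were over 0.1 (range -0.37 to 0.49), and the main fit used no pairing. Deviations from group means are not independent within a group, so this count cannot exclude a pairing. With the replicate block the calls were the same, for example 0.75 for miR-107-3p from C to D (limma adjusted p = 0.0174) and -0.50 for miR-103-3p from D to D + P (0.0357).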
